A study of Mus musculus with 2 samples.

Results

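The 34 genes described here encode the mitochondrial oxidation of fatty acids and the making, use and transport of ketone bodies, with a few regulators of that fuel choice. They were taken from a list by symbol, and all 34 had at least 1 probe with signal well above local background on both arrays, out of 13881 named genes measured that way. WT livers came from mice with the strain background C57B6J and the genotype wild type. CREBH-Tg livers came from mice with the same background that carry a transgene for the active form of human CREBH, expressed mainly in the liver, from a promoter that the sources used here do not name. Both groups ate the HFHS diet for 12 weeks, so no group on another diet enters the comparison. Each group was 1 pool of liver RNA on 1 array. The sources used here do not give the number, age or sex of the pooled mice. There was therefore no replicate, and no difference below has a test.

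Long-chain fatty acids are first activated to acyl-CoA, then carried into the mitochondrion as carnitine esters, and there shortened in a repeated cycle of dehydrogenation, hydration, a further dehydrogenation and thiolysis. Malonyl-CoA, the first product committed to fatty acid synthesis, inhibits the carnitine step. In fasting liver much of the resulting acetyl-CoA becomes ketone bodies, which leave the cell for other tissues, and the nuclear receptor PPAR alpha drives many of these genes. CREBH, encoded by Creb3l3, is a liver transcription factor known to act on lipid genes together with PPAR alpha.

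Levels are given as the log2 of the processed signal minus the 75th percentile of the array, and a ratio is the CREBH-Tg level minus the WT level on that log2 scale. Levels of different genes come from different probes and are not compared with each other. The only measure of error was the scatter of single spots of probes printed at least 5 times. Its 95% range for a log2 ratio was 0.40 for dim genes, 0.17 for genes of medium signal and 0.095 for bright genes, which are 3 equal classes of all named genes by signal. This range covers printing and scanning on these arrays, and not the spread between mice, pools, labelling reactions or hybridisations. Of the 34 genes, 25 were bright, 5 of medium signal and 4 dim. The 75th percentile stood at an intensity of 298 for WT and 275 for CREBH-Tg. Between 55.4% and 58.3% of spots were well above background, and no spot was saturated.

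Transcripts of the pathway differed little between the genotypes. The log2 ratios ran from -0.42 for Ppargc1a to 0.38 for Crat, with a median of 0.061. Over all 13881 named genes the median was 0.031, and 89.5% of them lay within the range spanned by the 34. Bdh1 and Crat had a ratio of at least 0.32 (2 of 34, 5.88%), as had 8.19% of all named genes and 5.36% of the bright class. Ppargc1a had a ratio of -0.32 or lower (1 of 34, 2.94%), as had 7.04% of all named genes and 2.66% of the bright class. This size, a log2 ratio of 0.32, is the threshold used throughout. No member reached 1.5-fold in either direction, against 2.35% of named genes higher and 2.15% lower by that much. Both shares of members lay below those over all genes and near those of the bright class. The split of 2 higher and 1 lower became 6 and 1 with scaling to the median, 1 and 1 with quantile or loess scaling, and 0 and 1 in the authors' value table or under normexp background correction. The sign of the ratio was positive for 25 of the 34, or 73.5%, beside 57.1% of all genes and 67.4% of the bright class. That count was 30 with scaling to the median, 20 with the 75th percentile of detected probes, 17 in the authors' value table, 16 with loess or normexp and 14 with quantile scaling, where 52.7% of all genes were above 0. Against the median of all genes, 20 of the 34 were above it as reported. The number above that median was 14 with quantile scaling, 16 with loess or normexp and 25 with no filter on dim probes.

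**Figure D1:**
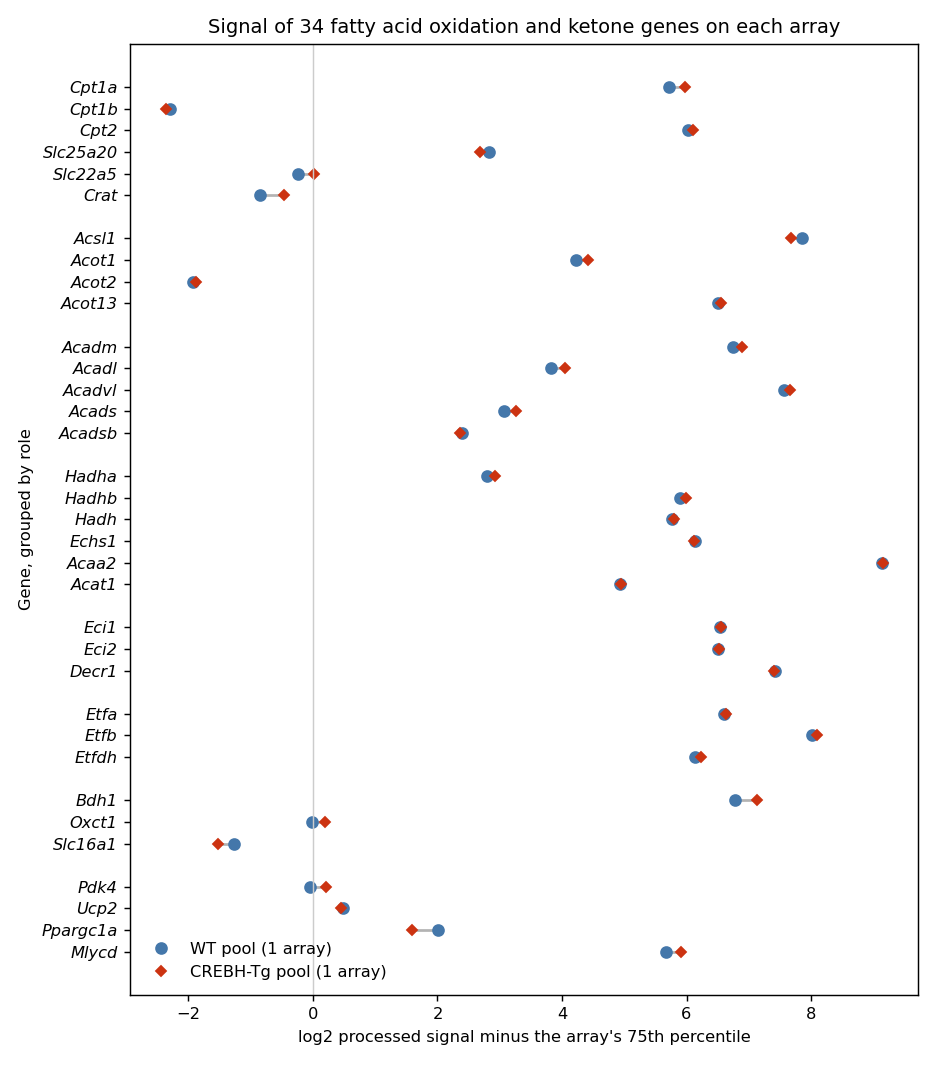
The horizontal axis is the log2 processed signal minus the 75th percentile of the array, and each line is 1 of the 34 genes, grouped by role. Circles are the WT pool and diamonds the CREBH-Tg pool, 1 array each, and most pairs of symbols nearly overlap; positions of different genes are not comparable.

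Set against spot scatter, 13 members were higher in CREBH-Tg by more than the 95% range, 3 were lower, and 18 lay within it. These counts are for the values as reported, and some members, Acadm and Acadvl among them, fell within the range under other scalings. The same criterion was met on the higher side by 21.6% of all named genes and 37.4% of the bright class, and on the lower side by 12.8% and 15.0%. Among the 25 members of the bright class, 10 were higher (40.0%) and 2 lower (8.0%). The share on the higher side was thus near that of other bright genes. Measured from the median of all genes, 11 of the 34 members were higher by more than the range and 3 lower. The share of all genes by that measure was not taken. In bulk RNA, a change in the number of cells of a type and a change in RNA per cell cannot be told apart.

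**Figure D2:**
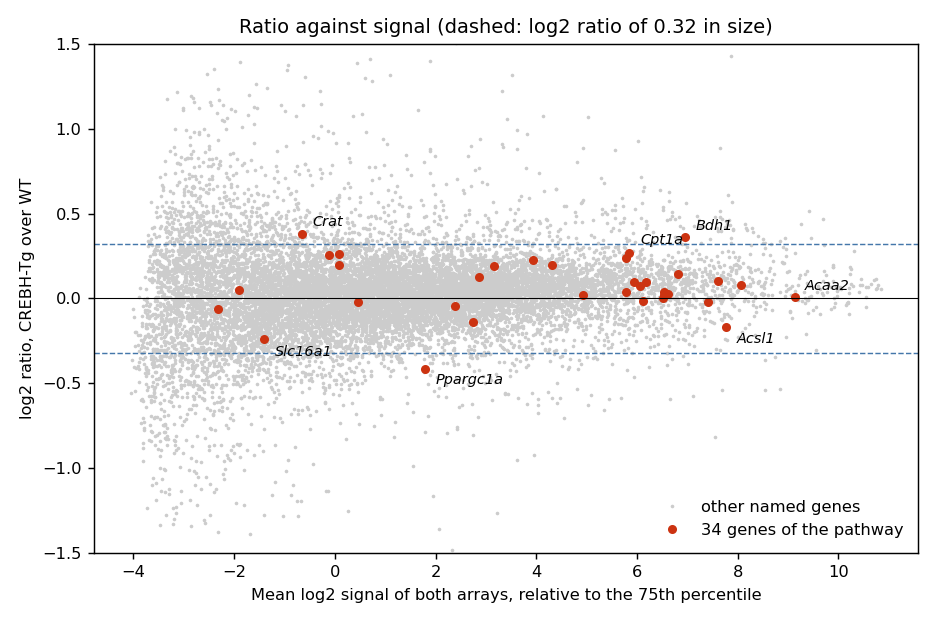
The horizontal axis is the mean log2 signal of both arrays and the vertical axis the log2 ratio of CREBH-Tg over WT; grey points are other named genes and red points the 34 members, with a ratio of 0.32 in size dashed. Bdh1 and Crat lie above the upper line and Ppargc1a below the lower one; 67 genes beyond a ratio of 1.5 in size, none of them a member, are outside the axis.

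The carnitine shuttle held genes on both sides. Cpt1a, the liver form of the malonyl-CoA-sensitive carnitine palmitoyltransferase at the outer membrane, had a level of 5.71 in WT and 5.98 in CREBH-Tg, a ratio of 0.27 or 1.20-fold. Its probe was printed many times on each array, and 8 unflagged spots gave the closest view of scatter. Spot levels ranged from 5.63 to 5.79 in WT and from 5.92 to 6.04 in CREBH-Tg, so the spots of the arrays did not overlap. Spot ratios were 0.27 ± 0.049 (SD over 8 spots of 1 array pair), and a further Cpt1a probe gave 0.30. Crat, the carnitine acetyltransferase, went from -0.85 to -0.47, a ratio of 0.38, which lies within the range of 0.40 for dim genes. Slc22a5, the plasma membrane carnitine transporter OCTN2, went from -0.24 to 0.010, a ratio of 0.25.

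Cpt2, the inner membrane transferase, had a ratio of 0.071, within spot scatter. Slc25a20, the carnitine-acylcarnitine carrier of the inner membrane, was lower in CREBH-Tg, with levels of 2.82 and 2.68 and a ratio of -0.14. Cpt1b, the muscle form, was dim on both arrays, at -2.29 and -2.36. Of 10 markers of skeletal and heart muscle, 4 were well above background on both arrays, all in the dim class, and Ckm, Actc1, Myh1 and Myh4 were so on neither. Mb passed background in WT alone and Tnnt3 in CREBH-Tg alone.

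**Figure D3:**
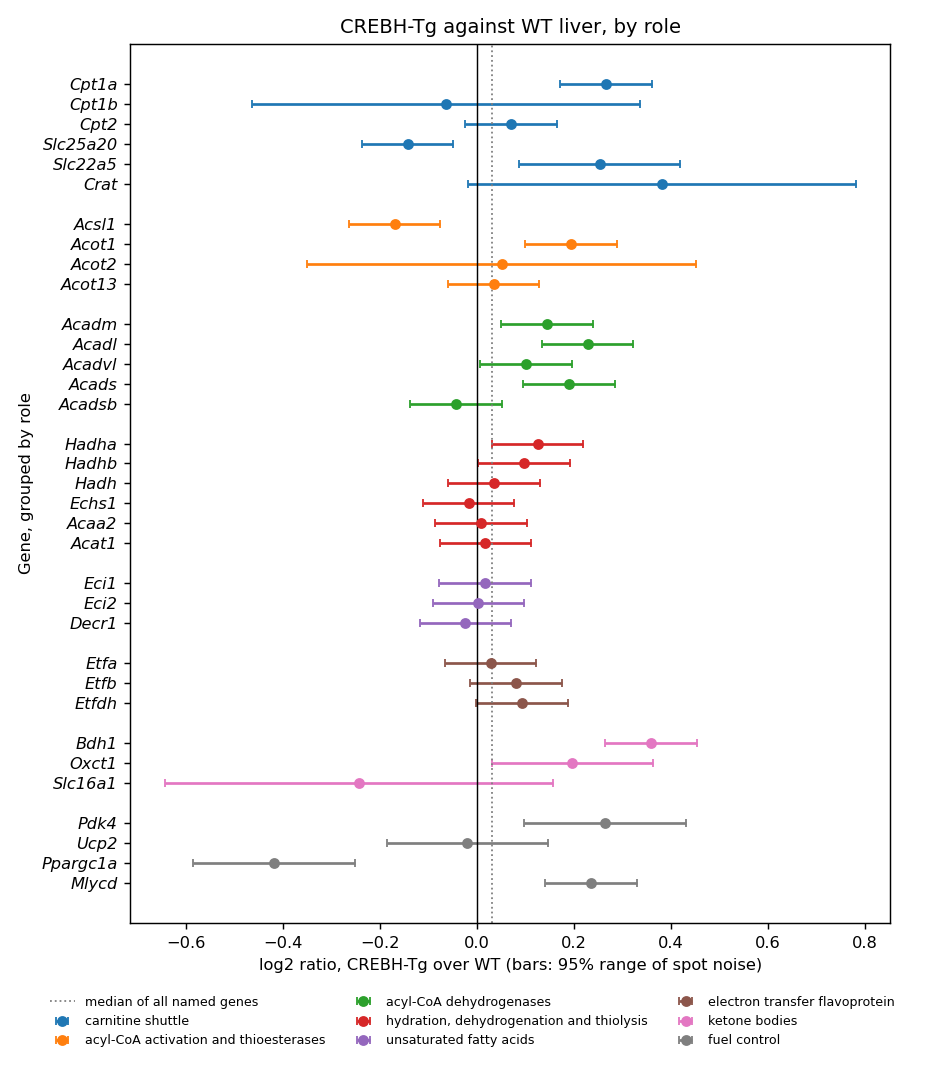
The horizontal axis is the log2 ratio of CREBH-Tg over WT for each of the 34 genes, coloured by role; bars are the 95% range of spot scatter of the gene's signal class, and the dotted line marks the median of all named genes, 0.031. The bars of 13 genes clear 0 on the right, among them Cpt1a, Bdh1, Pdk4, Mlycd and 4 acyl-CoA dehydrogenases, and those of Ppargc1a, Acsl1 and Slc25a20 clear it on the left.

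Activation and release of acyl-CoA gave small differences. Acsl1, the main long-chain acyl-CoA synthetase of liver, had levels of 7.85 in WT and 7.68 in CREBH-Tg. The ratio was -0.17, or 1.12-fold lower, and its other probe gave -0.12. Acot1, a cytosolic thioesterase that frees fatty acids from CoA, went from 4.22 to 4.41, a ratio of 0.19. Its mitochondrial relative Acot2 had a ratio of 0.052 at a dim level. The Acot1 and Acot2 transcripts are so alike that each probe may detect both, and the values of the pair are uncertain. Acot13, a further thioesterase, had a ratio of 0.035.

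The acyl-CoA dehydrogenases, which open each round of oxidation, lay mostly above 0. Acadl, for long chains, had levels of 3.83 and 4.05, a ratio of 0.23 or 1.17-fold. Acads, for short chains, had 3.06 and 3.25, a ratio of 0.19. Acadm, for medium chains, had 6.75 and 6.89, a ratio of 0.14, and Acadvl, for very long chains, had 7.56 and 7.66, a ratio of 0.10. Acadsb, which acts on branched chains from isoleucine, had a ratio of -0.043. Of the 5 enzymes, 4 were higher in CREBH-Tg by more than the spot range and none was lower, beside 21.6% of all named genes and 37.4% of the bright class on the higher side, and the median was 0.14. Acadvl did not exceed the median of all genes by more than the spot range. It had a ratio below 0 under quantile scaling and under normexp background correction (-0.043).

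The later steps of the cycle were nearer to equal. Hadha and Hadhb, the alpha and beta subunits of the mitochondrial trifunctional protein, had ratios of 0.13 and 0.097, both just past the spot range of 0.095. Hadhb did not exceed the median of all genes by more than that range, and its ratio was 0.016 under quantile scaling. Hadh, the short-chain hydroxyacyl-CoA dehydrogenase, had 0.035, Echs1, the short-chain hydratase, -0.016, and Acat1, the acetoacetyl-CoA thiolase, 0.018. Acaa2, the thiolase that closes the cycle, was printed in 10 spots. They spanned levels of 9.07 to 9.24 in WT and 9.09 to 9.23 in CREBH-Tg. The spots of Acaa2 overlapped almost completely, in contrast to those of Cpt1a, and its ratio was 0.0094 ± 0.035 (SD over 10 spots of 1 array pair).

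Enzymes for unsaturated fatty acids and electron transfer were all within spot scatter. The enoyl-CoA isomerases Eci1 and Eci2 had ratios of 0.018 and 0.0038, and the dienoyl-CoA reductase Decr1 had -0.023 on its brighter probe and 0.13 on its dimmer one. The subunits of the electron transfer flavoprotein, Etfa and Etfb, had 0.029 and 0.081. Etfdh, which hands their electrons to ubiquinone, had 0.094.

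**Figure D4:**
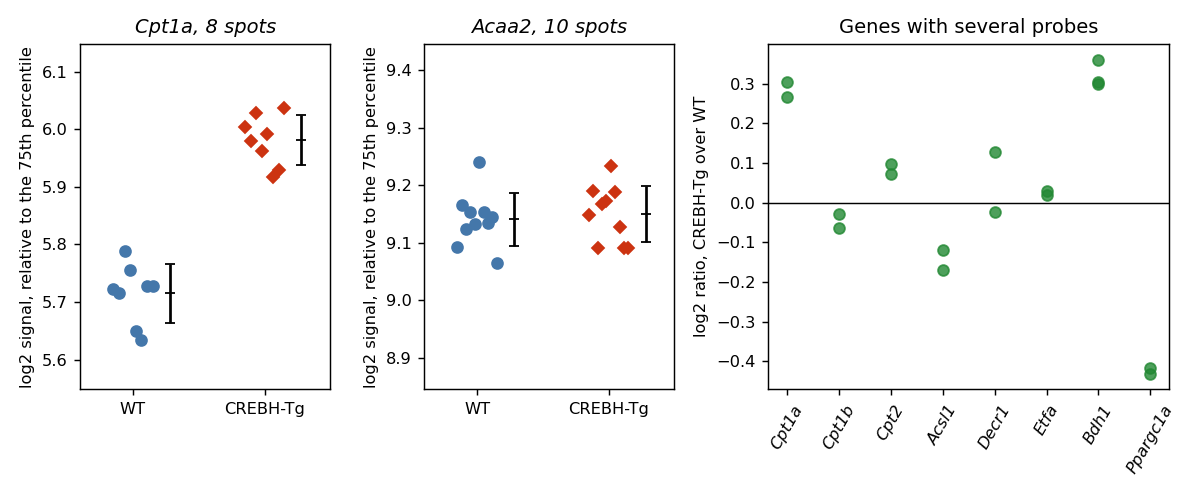
The left and middle panels show the log2 signal of single spots of Cpt1a (8 spots) and Acaa2 (10 spots) on each array, with mean and SD over spots; spots of Cpt1a separate by array and those of Acaa2 do not. The right panel shows the log2 ratio of every probe of the 8 members with several probes; in 7 of them all probes lie on the same side of 0, and Decr1 is the exception.

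Of the ketone body genes, Bdh1 stood highest. Bdh1 interconverts acetoacetate and beta-hydroxybutyrate on the inner mitochondrial membrane. Its level was 6.78 in WT and 7.14 in CREBH-Tg, a ratio of 0.36 or 1.28-fold, and its 3 probes gave 0.30 to 0.36. Each of the 3 probes was thus higher in CREBH-Tg by more than the 0.17 of medium-signal genes. Oxct1, the CoA transferase with which other tissues use ketone bodies and which hepatocytes largely lack, had levels of -0.010 and 0.19 and a ratio of 0.20. Slc16a1, the monocarboxylate transporter MCT1 that passes lactate and ketone bodies, went from -1.28 to -1.52. Its ratio of -0.24 lay within the range for dim genes.

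The genes of fuel control split. Ppargc1a, the coactivator PGC-1 alpha that raises mitochondrial and fasting genes, had levels of 2.0 in WT and 1.58 in CREBH-Tg. The ratio was -0.42, or 1.34-fold lower, and the other probe gave -0.43. Of the 34 genes it was the farthest from 0. Pdk4, the kinase that shuts pyruvate dehydrogenase and so spares glucose, went from -0.051 to 0.21, a ratio of 0.26 or 1.20-fold. Mlycd, which breaks down malonyl-CoA, went from 5.67 to 5.91, a ratio of 0.24 or 1.18-fold. The uncoupling protein relative Ucp2 had a ratio of -0.019.

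The bases upstream of 3 of these genes are shown because they include the bright genes farthest above 0 and the gene farthest below it. They are the 250 bases before each start in the set of promoter windows used here, on the gene's strand 5′ to 3′, from RefSeq on GRCm38.p6. Any start of these genes outside that set was not scanned. The windows are Cpt1a at chr19:3323051-3323300 (plus strand), the alternative starts of Bdh1 at chr16:31422047-31422296 and chr16:31428503-31428752 (plus strand), and Ppargc1a at chr5:51567726-51567975 (minus strand). Capitals mark AGGTCA, the nuclear receptor core site, and TGACG or TGACGTGG, elements read by cAMP response and CREB3 or ATF6 family factors, on either strand.
Cpt1a: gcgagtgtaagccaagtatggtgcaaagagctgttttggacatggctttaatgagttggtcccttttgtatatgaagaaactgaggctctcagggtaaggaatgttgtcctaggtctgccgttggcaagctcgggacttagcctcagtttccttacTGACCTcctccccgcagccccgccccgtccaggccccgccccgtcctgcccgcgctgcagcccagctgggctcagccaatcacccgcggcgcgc
Bdh1, start 1: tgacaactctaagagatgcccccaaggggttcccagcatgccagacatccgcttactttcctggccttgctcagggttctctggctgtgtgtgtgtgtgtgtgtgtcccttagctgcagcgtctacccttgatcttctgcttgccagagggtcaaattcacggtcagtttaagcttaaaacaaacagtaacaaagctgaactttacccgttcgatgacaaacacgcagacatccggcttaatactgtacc
Bdh1, start 2: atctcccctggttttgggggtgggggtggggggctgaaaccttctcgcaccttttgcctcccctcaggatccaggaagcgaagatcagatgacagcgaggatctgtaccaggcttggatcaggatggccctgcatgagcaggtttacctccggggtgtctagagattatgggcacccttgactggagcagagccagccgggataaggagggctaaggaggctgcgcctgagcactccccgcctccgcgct
Ppargc1a: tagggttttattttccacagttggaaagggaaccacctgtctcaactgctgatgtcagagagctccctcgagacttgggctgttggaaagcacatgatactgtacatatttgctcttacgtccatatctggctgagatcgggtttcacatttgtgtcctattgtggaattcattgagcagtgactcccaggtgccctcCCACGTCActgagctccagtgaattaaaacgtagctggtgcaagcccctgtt

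In the Ppargc1a window the capitals are TGACGTGG read on the opposite strand, 52 to 45 bases before the start, and this match contains TGACG. In the Cpt1a window they are AGGTCA on the opposite strand, 94 to 89 bases before the start. Promoter windows were matched for 28 of the 34 genes, 30 windows in all, and 32851 windows of the same length served as the background. TGACGTGG was found in 1 of the 30 windows and in 0.563% of all windows. TGACG was found in 8 of the 30, upstream of Acadm, Acadsb, Acot2, Etfa, Etfdh, Ppargc1a, Slc22a5 and Ucp2, and in 17.8% of all windows. AGGTCA was found in 4 of the 30, upstream of Acadm, Acadvl, Cpt1a and Echs1, and in 14.0% of all windows. TGACGTCA and the repeat AGGTCANAGGTCA were in none of the 30, and in 1.55% and 0.0335% of all windows. A match is a string of letters in this window and shows no binding.

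Other acyl-CoA and ketone body genes, not all of them mitochondrial, were lower at more genes than higher. Of 50 listed, 47 were measured on both arrays, with 17 ratios above 0, 30 below, and a median of -0.071. Over all named genes 57.1% were above 0. Under scaling to the median the list had a median of 0.016 with 25 above 0, beside 73.7% of all named genes. At -0.32 or lower were 5 of the 47, beside 7.04% of all named genes, and 2 under scaling to the median. Acot11, a thioesterase known from brown fat, had intensities before scaling of 391 in WT and 164 in CREBH-Tg. Its ratio after scaling was -1.14, or 2.20-fold lower. Aacs, the cytosolic synthetase that returns acetoacetate to lipid synthesis, had a ratio of -0.59. The other 3 were named after their values were seen. Acot3, a peroxisomal thioesterase of the Acot1 family, had -0.39, and -0.17 on its other probe. Acacb, which makes malonyl-CoA at the mitochondrial surface, had -0.37, and -0.38 on its other probe. The dim carnitine transporter gene Slc22a4 had -0.33, within spot scatter. At 0.32 or higher were 2 of the 47, beside 8.19% of all named genes. They were Pdk3 (0.81) and the mitochondrial carrier Slc25a29 (0.60), both dim. In other ways of processing their lowest ratios were 0.20 and 0.35, and the count was 1 under normexp or the stricter filter on dim probes and 4 with scaling to the median or no such filter.

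Fatty acid oxidation outside the mitochondrion was higher at a few genes. Of 22 peroxisomal and microsomal genes the median ratio was 0.021, and none was at -0.32 or lower. Over all named genes 8.19% were at 0.32 or higher, and of the bright class 5.36%. At 0.32 or higher were 4 of the 22. These were the omega-hydroxylases Cyp4a31 (1.58-fold), Cyp4a10 (1.56-fold) and Cyp4a14 (1.40-fold), which are similar genes that a probe may not tell apart, and Crot, which makes carnitine esters in peroxisomes (1.28-fold). Crot was under 0.32 in 4 of 9 other ways of processing, with a lowest ratio of 0.27. Oxidative phosphorylation had 20 of 25 genes above 0, all 25 in the bright class, of which 67.4% was above 0. Its median of 0.087 became -0.00083 under quantile scaling and -0.0020 under normexp, each with 12 of 25 above 0. Atp5o was 1.39-fold higher. De novo lipogenesis had 17 of 20 genes below 0 and a median of -0.26, and 8 were at -0.32 or lower (7.04% of all named genes). That count was 5 with scaling to the median and 11 with quantile or loess scaling. The lowest were Thrsp (1.76-fold lower), Fasn (1.41-fold), Gpam (1.40-fold) and Acaca (1.33-fold), the last being the cytosolic source of malonyl-CoA.

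All 10 hepatocyte markers were well above background on both arrays, with a median ratio of 0.066. Of 8 adipocyte markers, 5 were measured on both arrays, all 5 above 0, with Adipoq at 2.21 and Retn, named after its value was seen, at 1.56, both dim. Their lowest values over the ways of processing were 0.99 and 0.79. Lep and Plin1 passed background in CREBH-Tg alone, and Ucp1 in neither. The summed intensity of the 5 measured adipocyte markers, before scaling, was 3278 in WT and 3690 in CREBH-Tg. Most of it came from markers other than Adipoq and Retn. Median ratios were 0.15 for 7 lymphocyte markers (Cd3d highest at 1.1, dim), 0.24 for 8 stellate cell markers, 0.059 for 7 endothelial markers, -0.065 for 8 macrophage markers and -0.51 for 5 cholangiocyte markers. The lowest value of Cd3d was 0.61. The cholangiocyte median was -0.18 under normexp and -0.33 with no filter on dim probes, and the adipocyte median, 0.39 as reported, was 0.17 with the stricter filter. With scaling to the median the macrophage median was 0.022. The hepatocyte and endothelial medians were -0.028 and -0.0084 with loess. The part of these cell types in the values above was not tested.

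The direction of 17 members held under all 9 other ways of processing, each where it was measured. The 13 that stayed above 0 were Crat, Bdh1, Cpt1a, Pdk4, Slc22a5, Mlycd, Acadl, Oxct1, Acot1, Acads, Acadm, Hadha and Hadhb. The 4 that stayed below 0 were Ppargc1a, Slc16a1, Acsl1 and Slc25a20. The signs of the other 17, which had ratios between -0.063 and 0.10, changed with the scaling. Under quantile scaling the median of the members was -0.016 and under normexp -0.027, against 0.011 and 0.0052 for all named genes.

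**Figure D5:**
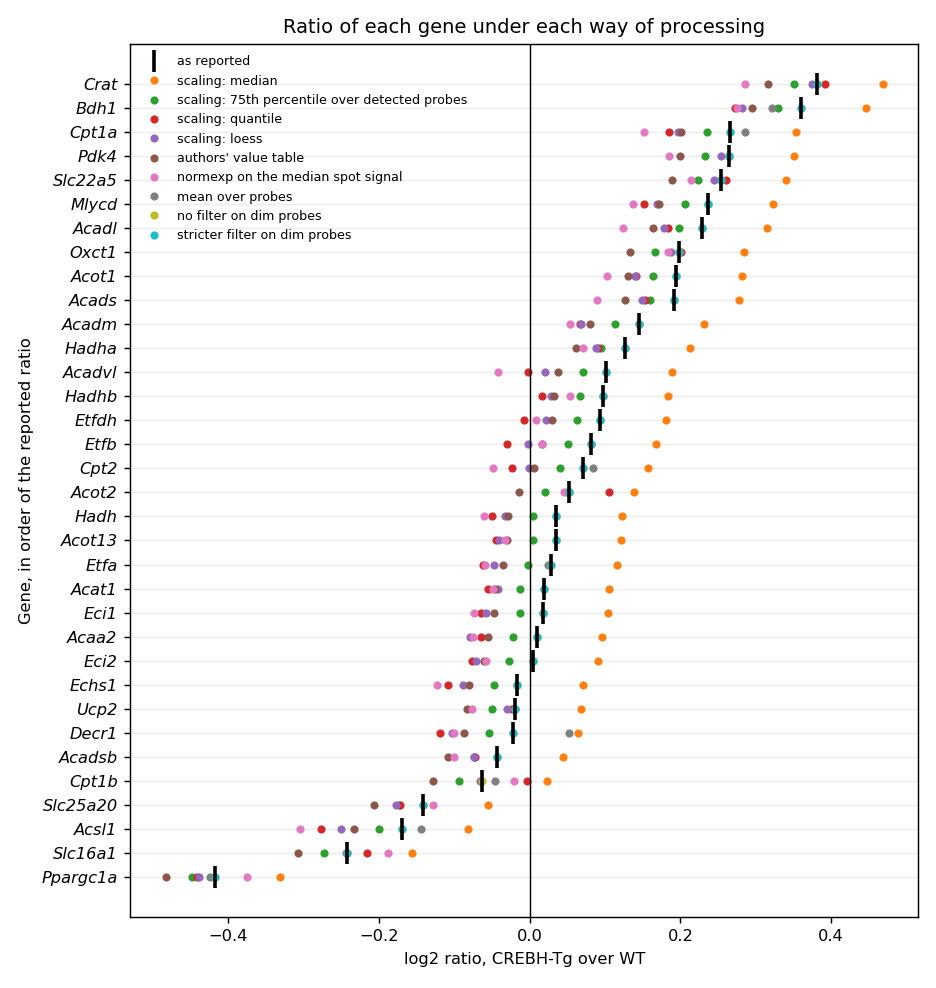
The horizontal axis is the log2 ratio of CREBH-Tg over WT, with a line for each of the 34 genes in order of the reported ratio; the black bar is the value as reported and each colour another way of processing. Scaling to the median shifts every gene to the right; Ppargc1a stays lowest and Crat and Bdh1 stay highest in each.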

How the data were processed

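Liver RNA of each genotype had been pooled, labelled with Cy3 and hybridised to a 1-colour Agilent array, per the labels' protocols. The deposited scanner files hold the processed signal, a linear intensity that was background-subtracted and detrended within each array by Agilent Feature Extraction 10.10.1.1, per the file headers. The authors' value table also holds intensity, equal to that signal times 1 constant per array (2.59 for WT, 2.68 for CREBH-Tg, with medians of 89.8 and 81.0), whose rule the sources used here do not state. Here processed signals were put on log2, 300 outlier spots were dropped, spots of a probe were averaged and the 75th percentile over non-control probes was subtracted. Probes were named by transcript accession from a RefSeq table of GRCm38.p6, which named 27233 of 55677 probes. A gene took its brightest probe that was well above background in over 50% of its spots on both arrays. Precision is limited by having 1 array per group.

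The members, gene lists, thresholds and alternatives were chosen with earlier results of these data known. All 34 members were named. In other pathway lists up to 4 genes at a log2 ratio of 0.32 or more in size were named, or the farthest from 0, and the farthest marker gene at 2-fold; Creb3l3 and Ppara were always named, and muscle and adipocyte markers by whether they passed background after this was seen; genes outside this rule are marked as such. The gene summary was tested on simulated data. No test across genes was possible with 1 array per group. The alternatives were 4 other scalings (median, 75th percentile of detected probes, quantile, loess at span 0.3), the value table of the authors, normexp on median spot and background signals with an offset of 50, averaging the probes of a gene, no filter on dim probes and a stricter one (the 25th percentile of detected probes), besides thresholds of 1.5-fold and 2-fold. Tools were Python 3.11.15, R 4.3.3, limma 3.58.1, matplotlib 3.10.9, statsmodels 0.14.6, pandas 2.3.3 and numpy 2.4.6.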

Additional observations from a re-analysis of the deposited data

How the results depend on the processing

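The count of members at a log2 ratio of 0.32 or higher, 2 as reported, was 6 with scaling to the median, 1 with quantile scaling, loess or the mean over a gene's probes, and 0 in the authors' value table, under normexp or at a threshold of 1.5-fold or 2-fold. The count at -0.32 or lower, 1 as reported, was 1 in all 9 other ways of processing and 0 at 1.5-fold or 2-fold. The count of members above 0, 25 as reported, was 30 with scaling to the median, 20 with the 75th percentile of detected probes, 17 in the authors' value table, 16 with loess or normexp and 14 with quantile scaling. The share of all named genes above 0 was 57.1% as reported and 73.7% with scaling to the median. It was 49.9% with the 75th percentile of detected probes and 41.8% in the authors' value table. Under each of these, which shift all genes alike, 20 members lay above the median of all genes. The cause of the counts with quantile scaling, loess and normexp was not tested. The median ratio of the members ran from -0.027 to 0.15, and was below 0 with quantile scaling, loess, the authors' value table and normexp. The stricter filter on dim probes left 33 of the 34 members. No paired analysis was possible because each genotype has 1 array, and for the same reason no sample could be left out. Differences below 0.095 for bright genes and 0.40 for dim genes cannot be told from spot scatter.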

Other observations

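In the pools, regulators of fatty acid oxidation lay, as reported, within a ratio of 0.32 in size except for 1 hormone gene. Of 26 listed, all were measured on both arrays, and the median was 0.031. A ratio above 0 was seen for 16 (11 under normexp, 21 with scaling to the median), beside 57.1% of all named genes. By more than the spot range, 6 were higher and 3 lower, beside 21.6% and 12.8% of all named genes. Fgf21, the fasting hormone of liver, alone reached a ratio of 0.32 in size. Of all named genes, 8.19% were at 0.32 or higher and 7.04% at -0.32 or lower. With scaling to the median, 2 of the 26 were at 0.32 or higher. The intensity of Fgf21 before scaling was 542 in WT and 2551 in CREBH-Tg. The log2 ratio after scaling was 2.35, or 5.09-fold, and from 2.14 to 2.43 over the ways of processing. Ppara, the nuclear receptor of the pathway, had a ratio of 0.066 on its brightest probe, and its 3 probes ran from -0.018 to 0.11. Creb3l3 had the same level in both pools within spot scatter, on a probe for the mouse gene, which does not check for a human transgene.

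Some further values were chosen after they were seen. Pparg had a ratio of 0.29 and the coactivator Ppargc1b, a relative of Ppargc1a, 0.22. Foxo1, a factor of the fasting response, had -0.25. Ppargc1b was thus above 0 where Ppargc1a was below it.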
